A study of Fukomys damarensis and Heterocephalus glaber and Cavia porcellus with 28 samples.

Results

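In the naked mole-rat, Heterocephalus glaber, heart was set against liver across all genes: 3 heart and 4 liver libraries, or 7 of the 28 libraries of a study of gene expression evolution in mole-rats. They were chosen by species and tissue alone, with no measured value. All came from males, aged 13, 15 and 17 months for hearts 1 to 3 and 15, 14, 13 and 17 months for livers 1 to 4. The labels name 5 animals: heart 1 and liver 3 came from one of them, heart 2 and liver 1 from another, and each of the other libraries from an animal of its own. No treatment or genetic change is named for any library. The other libraries, used here only to see whether a tissue difference was particular to the naked mole-rat, came from the Damaraland mole-rat (5 hearts, 5 livers, aged 36 to 48 months, 1 liver from a female), and from males of 2 outgroups, the guinea pig (3 and 3, aged 2.3 months) and the mouse (3 and 2, aged 2 months). Total RNA from pieces of flash-frozen tissue was depleted of ribosomal RNA before sequencing. The labels do not say which chamber of the heart or lobe of the liver was taken.

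The heart is built around striated muscle cells, whose sarcomeres slide myosin along actin under the control of calcium released through the ryanodine receptor, and it meets a constant need for ATP mainly from fatty acids in densely packed mitochondria. The liver is built around hepatocytes, which secrete most proteins of blood plasma, make bile acids and urea, store glycogen and release glucose, and make ketone bodies that the heart can burn. Many steps of energy metabolism are carried out by a pair of genes, of which vertebrate muscle mainly uses one and liver the other. Naked mole-rats live underground in crowded colonies, tolerate very low oxygen and live far longer than a rodent of their size usually does.

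The deposited values were turned back into reads, scaled to 1000000 reads per library (reads per 1000000, RPM) and divided by a factor for each library, the median of its ratios to the mean of all libraries compared; these are called normalised RPM below. A log2 difference is heart minus liver on the log2(normalised RPM + 1) scale, so it understates the difference of rare genes. Libraries held 4089633 to 22526618 reads, with heart 3 the smallest. All 10 cardiomyocyte markers tested were higher in heart, and all 9 hepatocyte markers tested were higher in liver. Heart 3 stood apart from the other hearts: its rank correlation with them was 0.920 and 0.921, against 0.984 between hearts 1 and 2 and 0.973 to 0.988 among the livers. Between tissues the correlation was 0.553 to 0.609.

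Each heart library also carried reads of genes that hepatocytes express. The median plasma protein gene stood at 1.41, 0.700 and 1.77% of its mean liver level in hearts 1, 2 and 3. The same measure was 0.110 to 0.330% in Damaraland hearts, 0.0387 to 0.183% in guinea pig hearts and 0.0303 to 0.0860% in mouse hearts, so all naked mole-rat hearts lay above every other heart. In the naked mole-rat livers, sarcomere genes stood at 0.129 to 0.213% of their mean heart level. The part of this signal in the differences below was not tested directly, but values with it subtracted are given where they change a call named below.

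**Figure D1:**
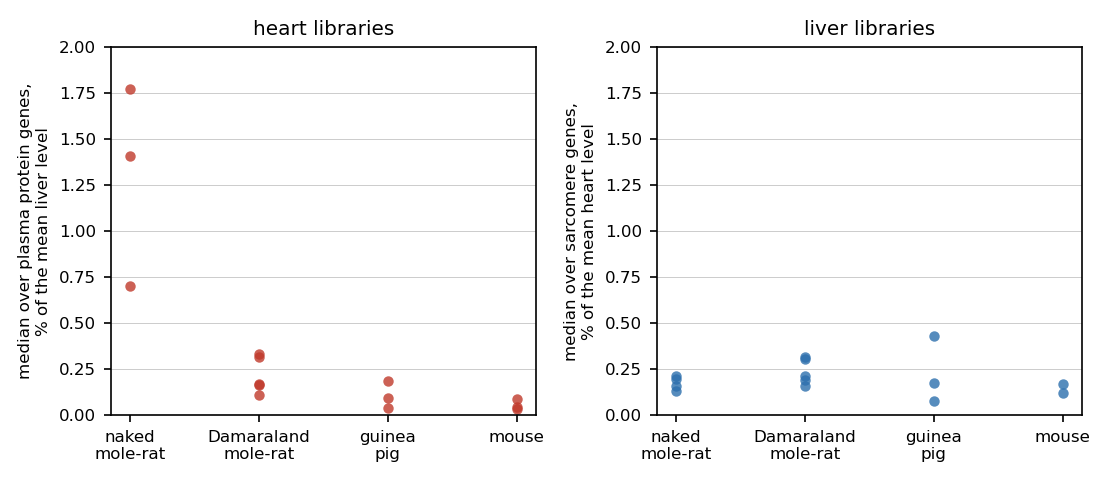
Each point is 1 library; the left panel gives the median level of plasma protein genes in heart libraries as a percentage of the mean liver level of the same species, and the right panel the median level of sarcomere genes in liver libraries as a percentage of the mean heart level. The 3 naked mole-rat hearts lie at 0.700 to 1.77%, above all other hearts, while naked mole-rat livers lie within the range of the other livers.

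Of 10947 genes tested, 4999 (45.7%) differed between heart and liver by limma at a Benjamini-Hochberg adjusted p under 0.05 and a log2 difference of at least 1. In heart 2485 were higher (22.7%), and in liver 2514 (23.0%). In 6948 of the genes tested the heart and liver libraries did not overlap. The differences were large: 1075 genes were higher in heart by at least 2 on the log2 scale and 1236 in liver, and 168 and 281 by at least 5. At 8 or more there were 32 genes on the heart side and 0 on the liver side. With the other tissue's signal subtracted, Alb came to -16.98, Ahsg to -13.27 and Apoc1 to -12.89, and on the heart side Myh7 to 15.09. The subtraction took the level of these genes in the lower tissue to about 0. These values therefore follow mainly from the level in the higher tissue and the 1 added before the log, and are not measured differences. The count of 0 is for values without the subtraction. The split between the tissues depended on the scaling. The 10 most abundant genes took 29.4 to 33.7% of heart reads and 19.5 to 26.9% of liver reads. With plain RPM it was 3272 to 1991, and with RPM of nuclear genes 4225 to 1651, as the median of all genes moved by 0.32 and 0.63 towards heart. The list medians of contractile and secreted proteins given next exceed these shifts many times over. Counts of list members called between heart and liver below stand beside 22.7% of all genes called higher in heart and 23.0% in liver.

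**Figure D2:**
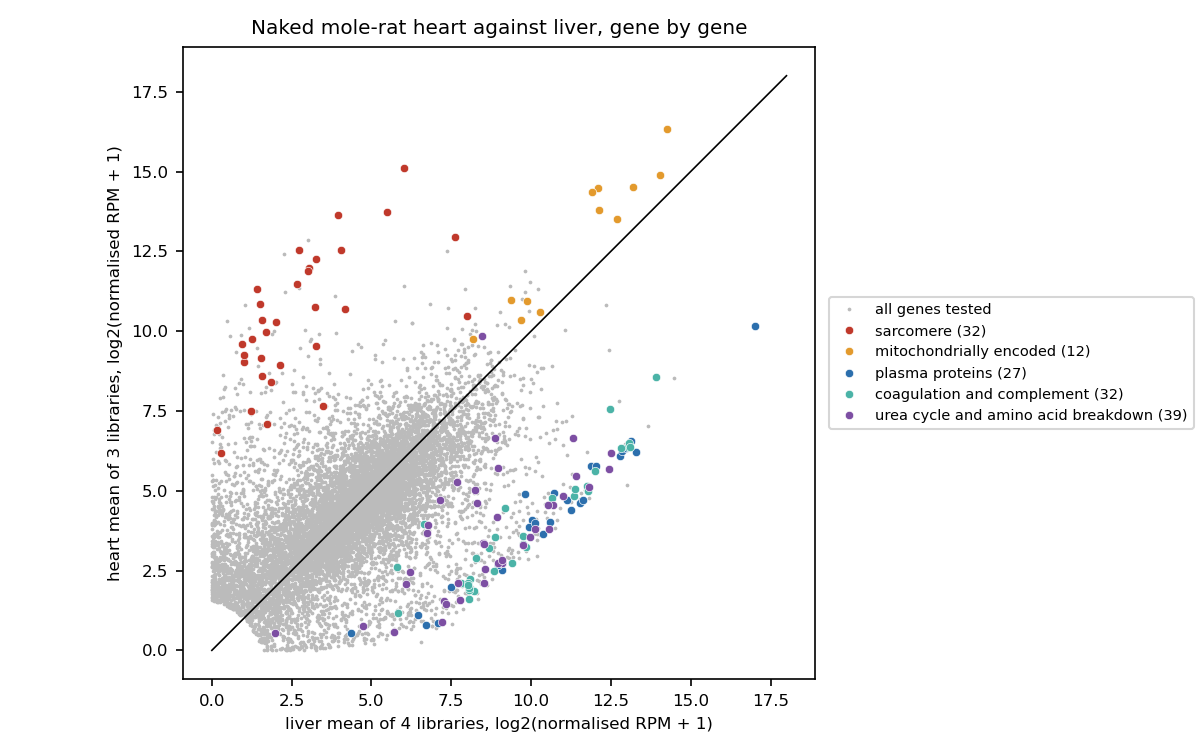
Each point is a gene tested, with its mean in 4 liver libraries on the horizontal axis and in 3 heart libraries on the vertical axis, both as log2(normalised RPM + 1); the line marks equal levels. Sarcomere genes lie high above the line, mitochondrially encoded genes above it, and plasma protein, coagulation and amino acid genes far below it.

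The contractile apparatus set the heart apart. All 32 sarcomere genes tested were higher in heart, with a median log2 difference of 8.12 against 0 for all genes. Together they took 13.7, 14.2 and 11.9% of the reads of hearts 1 to 3 and 0.05 to 0.0819% of the reads of the livers (exact permutation test of the shares, two-sided p = 0.0286, the smallest that 35 splits of 7 libraries allow; adjusted 0.0327). Myh7 (ENSMUSG00000053093), the slow β myosin heavy chain, stood at 28130, 43609 and 35412 normalised RPM in hearts 1 to 3 and at 68.4, 81.3, 57.2 and 50.0 in livers 1 to 4. Every heart lay far above every liver, with a log2 difference of 9.10 (SE 0.24; limma adjusted p = 3.23e-10). Myl2 (ENSMUSG00000013936), the ventricular regulatory light chain, was at 12724, 14417 and 11035 in hearts and 7.62, 17.9, 13.5 and 18.9 in livers, and differed by 9.75 (SE 0.28; limma adjusted p = 4.99e-10).

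Ankrd1, a stretch-responsive protein of the sarcomere and nucleus, had the largest difference of the list, 9.91 (SE 0.23; limma adjusted p = 3.18e-10), from 2377, 2098 and 3265 normalised RPM in the hearts and 0.893, 1.84, 1.76 and 2.25 in the livers. Mybpc3, the cardiac myosin-binding protein C, was at 7591, 8277 and 1887 in hearts and 4.05, 6.67, 6.40 and 5.22 in livers. Heart 3 was thus well below the other hearts for this gene, and the difference of 9.56 became 10.27 without it. Tnnt2, cardiac troponin T, differed by 9.06, and Myh7b, a slow myosin heavy chain, by 9.35. The smallest difference in the list was that of Myom1, 2.66, a gene singled out after its values were seen. Myh6, the fast α myosin heavy chain, was also singled out in that way, for its spread among the hearts. It stood at 29540, 4589 and 6839 in hearts 1 to 3, so that heart 1 held over 4 times the level of either other heart, and at 28.1, 52.0, 48.2 and 48.1 in the livers.

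Calcium handling and electrical genes were mostly higher in heart: 24 of 28 tested, with 1 higher in liver and a median of 4.27. Ryr2 (ENSMUSG00000021313), the calcium release channel, stood at 7378, 6434 and 8417 in hearts and 5.56, 9.96, 5.70 and 6.97 in livers. The groups were separated by a log2 difference of 9.87 (SE 0.22; limma adjusted p = 2.54e-10). Pln, the phospholamban that restrains the calcium pump, differed by 8.98, and Casq2, the calsequestrin that stores calcium, by 8.96. The member higher in liver was Dsc2, a cadherin of desmosomes, which epithelia also build; it was at 75.5, 87.2 and 60.7 in hearts and 247, 232, 133 and 215 in livers, a difference of -1.44.

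Among the cardiac transcription regulators 17 of 19 were higher in heart and 2 in liver (median 3.36). Smyd1, a methyltransferase needed for myofibril assembly, was at 582, 660 and 724 in hearts and 0.893, 0.677, 0.764 and 0.410 in livers and differed by 8.61. Nkx2-5, the homeobox factor that marks heart muscle, stood at 131, 114 and 16.4 in hearts and 0.0687, 0.290, 0.0587 and 0.307 in livers. Heart 3 was the low one, and the difference of 5.77 (SE 0.57; limma adjusted p = 4.86e-06) became 6.69 without it. The members higher in liver were Prox1 (-1.92) and Tbx3 (-1.86), both of which also act in hepatocyte development.

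The hearts differed from each other in several genes of the atria. Of the 11 atrial genes tested heart 3 was the highest heart for 8, the lowest for 2 and between the others for 1. Over all genes heart 3 also stood apart, with rank correlations of 0.921 and 0.920 to hearts 1 and 2. The same count was not made over all genes, so it does not show a difference particular to atrial genes. Nppa (ENSMUSG00000041616), the atrial natriuretic peptide, stood at 695, 276 and 1802 in hearts 1 to 3 and at 0.0687, 0.774, 0.705 and 0.359 in livers. Heart 3 was the highest and heart 2 the lowest; the difference of 8.92 became 8.24 without heart 3 and 9.57 without heart 2. Myl4, the atrial light chain, was at 35.5, 59.8 and 258 in hearts, again highest in heart 3, and its difference of 6.23 became 5.39 without that library. Sln (sarcolipin, an atrial inhibitor of the calcium pump) and Bmp10 (an atrial signalling protein), both chosen after their values were seen, were also highest in heart 3, at 2.51, 1.69 and 51.1 and 0.627, 0.339 and 83.9 in hearts 1 to 3. In livers Sln stayed at 0.0512 to 0.0967, on 4 reads in all, while Bmp10 stood at 15.1 to 20.2, above hearts 1 and 2 and below heart 3. The genes lowest in heart 3 were Nr2f2, a nuclear receptor (31.9, 40.3 and 21.0), and Stard10, of lipid transfer (100, 125 and 70.2). In the whole list 8 of 11 were higher in heart and 1, Stard10 (-1.86), higher in liver (median 2.38). Over all genes the shares were 22.7 and 23.0%. Of the ventricular markers 7 of 9 were higher in heart and 0 in liver (median 5.89). Ventricular markers summed to 47550, 65471 and 52743 normalised RPM in hearts 1 to 3, with heart 3 between the others.

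Outside the contractile and electrical lists, the largest heart differences belonged to the oxygen-binding protein of muscle and to proteins of its membranes and filaments. Mb (myoglobin, ENSMUSG00000018893) had the largest of all genes. It stood at 7354, 7111 and 1814 in hearts 1 to 3 and 1.24, 4.06, 4.46 and 5.28 in livers 1 to 4. Heart 3 was the low one, yet it remained far above all livers. The log2 difference was 10.01 (SE 0.49; limma adjusted p = 1.52e-08) and 10.68 without heart 3. Dhrs7c, a dehydrogenase of the sarcoplasmic reticulum, differed by 9.80, with 927, 1086 and 1847 in hearts and 0.343, 0.193, 0.235 and 0.819 in livers. Hspb7, a small heat shock protein that binds filaments in heart muscle, differed by 9.76.

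In liver the secreted proteins of blood dominated. All 27 plasma protein genes and all 32 genes of coagulation and complement tested were higher in liver, with medians of -6.44 and -6.19. Plasma protein genes took 15.3 to 21.9% of liver reads and 0.108 to 0.287% of heart reads, and coagulation and complement genes 6.68 to 7.83% and 0.131 to 0.153% (exact permutation tests, two-sided p = 0.0286 and adjusted 0.0327 each). Alb (ENSMUSG00000029368), serum albumin, was the most abundant gene of every liver library, with 8.23 to 15.5% of its reads. It stood at 1493, 502 and 1444 normalised RPM in hearts 1 to 3 and 132691, 184870, 129339 and 87179 in livers 1 to 4. Heart 2 had the least, all livers lay far above all hearts, and the log2 difference was -6.97 (SE 0.45; limma adjusted p = 1.39e-07). Ttr, the thyroid hormone carrier transthyretin, was at 21.6, 14.0 and 34.7 in hearts and 2916, 3397, 2113 and 3510 in livers, a difference of -7.0. Ahsg (fetuin-A, -7.14), Agt (angiotensinogen, -7.0) and Rbp4 (the retinol carrier, -7.0) were the largest of the plasma list. In the clotting list Apoh (-6.93), Vtn (vitronectin, -6.82) and Fga (the fibrinogen α chain, -6.73) led.

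Lipoprotein genes followed the same course, with 20 of 22 higher in liver (median -5.57). Apoc1 (ENSMUSG00000040564), an apolipoprotein that slows lipoprotein uptake, had the largest liver difference of all genes. It stood at 42.1, 21.4 and 42.4 in hearts and 8378, 10302, 3574 and 10680 in livers, where liver 3 was the lowest, and differed by -7.77 (SE 0.39; limma adjusted p = 1.74e-08). Apof, another apolipoprotein, differed by -7.07. Sort1, a sorting receptor, was the member higher in heart (3.07; 94.4, 75.3 and 157 in hearts against 9.48, 17.7, 11.3 and 9.01 in livers). Besides these, Car3 (a carbonic anhydrase, -7.02) and Crym (a thyroid hormone binding protein, -7.0) were among the 10 largest liver differences.

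The regulators and enzymes of the hepatocyte were higher in liver with few exceptions. Among hepatocyte transcription factors 18 of 22 were higher in liver (median -3.20). Hnf4a, the nuclear receptor at the head of the hepatocyte program, stood at 13.9, 5.95 and 15.8 in hearts and 912, 728, 700 and 706 in livers, a difference of -5.98 (SE 0.28; limma adjusted p = 1.20e-08). Foxa3, a pioneer factor, and Nr1h4, the bile acid receptor, differed by -5.84 and -5.68. The members higher in heart were Esrra (2.44), a receptor that drives mitochondrial genes, and Hlf (1.08), a clock output factor, which missed the size threshold without heart 3 (0.88).

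Of the genes of the urea cycle and amino acid breakdown 38 of 39 were higher in liver (median -5.80). Bhmt, which remethylates homocysteine, was at 60.2, 45.6 and 46.3 in hearts and 4952, 5901, 4896 and 6719 in livers, a difference of -6.76. Arg1, the last step of the urea cycle, differed by -6.70, and Tat, the tyrosine aminotransferase, by -6.71. Got1, an aminotransferase of the malate-aspartate shuttle, was higher in heart (1.39). Bile acid and xenobiotic genes were higher in liver in 29 of 32 cases (median -4.34), led by Cyp1a2 (-6.75), Slc27a5 (-6.73) and Baat (-6.70), of which the latter pair conjugates bile acids. Gstp1, a glutathione transferase, went the other way, with 180, 122 and 152 in hearts and 12.5, 14.4, 11.6 and 12.7 in livers (3.45). Fat and cholesterol synthesis was higher in liver in 33 of 36 genes (median -3.09). Its largest members were Thrsp (-6.21), Insig1 (-6.03) and Dgat2 (-5.77), a regulator of fat synthesis, the sterol-sensing anchor of SREBP and a triglyceride synthase.

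Glucose release and fructose use were higher in liver in 19 of 26 genes and higher in heart in 4 (median -4.61). Pck2, a mitochondrial PEP carboxykinase, stood at 8.24, 4.85 and 9.35 in hearts and 778, 747, 703 and 819 in livers, a difference of -6.53 (SE 0.21; limma adjusted p = 1.10e-09). The 4 members higher in heart were Akr1b3, the aldose reductase that opens the polyol route from glucose to fructose (269, 233 and 239 in hearts, 11.9, 14.5, 8.46 and 11.4 in livers, 4.32), the cytosolic malate dehydrogenase Mdh1 (2.28), the fructose carrier Slc2a5 (1.63) and the glycogen-targeting subunit Ppp1r3c (1.05). Slc2a5 was at 80.0, 83.2 and 48.0 in hearts and 15.5, 17.0, 62.3 and 12.4 in livers. Liver 3 exceeded heart 3 for this gene, so the groups overlapped. Ppp1r3c missed the size threshold without liver 2 (0.92) or liver 4 (0.97).

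**Figure D3:**
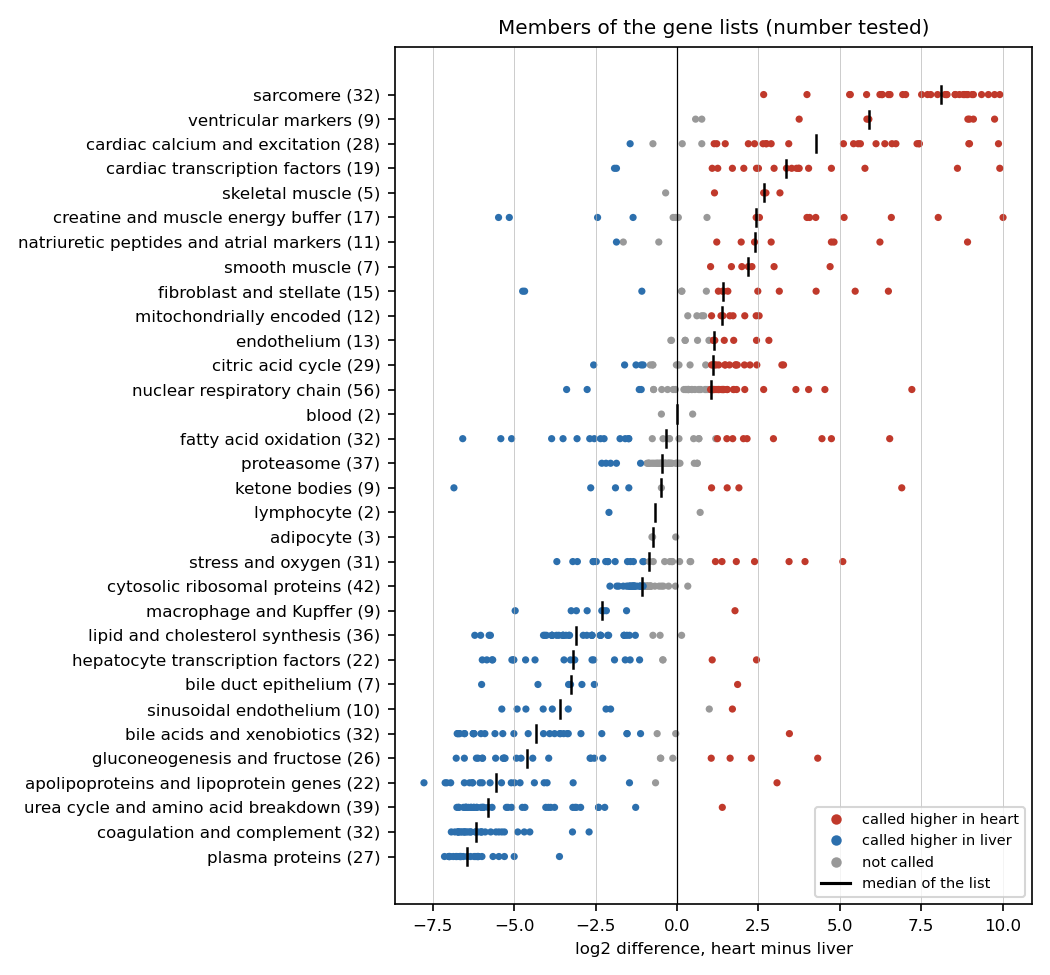
Each point is a member of a gene list, placed by its log2 difference of heart minus liver and coloured by whether it was called higher in heart, higher in liver or not called; black bars are list medians and the number tested is in brackets. Contractile lists lie furthest to the right (sarcomere median 8.12) and secreted proteins furthest to the left (plasma proteins -6.44), while fatty acid oxidation and ketone body genes spread to both sides.

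Mitochondrial energy metabolism was higher in heart by a smaller margin. In the citric acid cycle list, with pyruvate entry, 16 of 29 genes were higher in heart and 5 in liver (median 1.10). Over all genes the shares were 22.7 and 23.0%. Idh3a, a subunit of the NAD-dependent isocitrate dehydrogenase, was at 129, 92.6 and 133 in hearts and 8.31, 11.4, 12.8 and 13.0 in livers, a difference of 3.27 (SE 0.22; limma adjusted p = 1.72e-07). The kinases that switch pyruvate dehydrogenase off divided: Pdk3 was higher in heart (3.22), and Pdk4 was higher in liver (80.4, 70.8 and 57.3 in hearts, 458, 847, 280 and 266 in livers, -2.56), as was Pdk1 (-1.26). The other members higher in liver were Suclg2 (-1.61), the GTP-forming succinyl-CoA ligase subunit, Pdp2 (-1.10), a phosphatase that switches pyruvate dehydrogenase on, and fumarase, Fh1 (-1.04). With plain RPM Pdk1 (-0.96), Pdp2 (-0.78) and Fh1 (-0.69) missed the size threshold. Without heart 3 Pdk1 (-0.89) and Fh1 (-0.96) missed it, Pdp2 did so without heart 1 or heart 2 (-0.99 each), and Fh1 also without liver 2 (-0.98).

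Over all genes 22.7% were higher in heart and 23.0% in liver. Nuclear genes of the respiratory chain and ATP synthase were higher in heart in 30 of 56 cases and in liver in 4 (median 1.05). They took 2.30 to 2.37% of heart reads and 0.785 to 0.928% of liver reads (exact permutation test, two-sided p = 0.0286, adjusted 0.0327). The 12 mitochondrially encoded genes took 26.9, 22.7 and 24.1% of the reads of hearts 1 to 3 and 4.93 to 7.08% of liver reads, with the same p-values, and 8 of the 12 were higher in heart and 0 in liver (median 1.38). mt-Co1, a subunit of cytochrome c oxidase, was the most abundant gene of every heart, at 110977, 81403 and 57669 normalised RPM, against 19387, 26247, 21629 and 11768 in livers. mt-Atp6, a subunit of the ATP synthase, differed by 2.52 and mt-Cytb, of complex III, by 2.43. The nuclear members higher in liver were Cox6a1 (-3.39) and Cox8a (-2.76), the widely used forms of 2 cytochrome c oxidase subunits, and the complex I subunits Ndufb4 (-1.10) and Ndufb7 (-1.16). With plain RPM Ndufb4 (-0.76) and Ndufb7 (-0.81) missed the size threshold, as did Ndufb4 without heart 1 (-0.93) or liver 4 (-0.94).

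Fatty acid oxidation did not lie on one side. Of 32 genes 9 were higher in heart and 14 in liver, beside 22.7 and 23.0% of all genes. The median of -0.34 came to 0.00 with plain RPM and 0.32 with RPM of nuclear genes. Among the members higher in heart, Lpl, the lipoprotein lipase of the vessel wall, stood at 505, 421 and 309 in hearts and 3.50, 6.0, 2.41 and 2.46 in livers, a difference of 6.53 (SE 0.28; limma adjusted p = 5.86e-09). On the liver side were Slc27a2 (-6.58), a very-long-chain acyl-CoA synthetase, and Ehhadh (-5.41), of peroxisomal oxidation. Of 9 ketone body genes 4 were higher in heart and 4 in liver (median -0.48). That median came to -0.14 with plain RPM and 0.17 with RPM of nuclear genes. Oxct1 (ENSMUSG00000022186), which activates ketone bodies for burning, was at 473, 386 and 382 in hearts and 2.13, 2.03, 3.05 and 2.66 in livers (6.90; SE 0.19; limma adjusted p = 4.01e-10).

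The phosphocreatine system was higher in heart, where creatine kinases carry energy from mitochondria to myosin. In the list with adenylate and AMP enzymes 9 of 17 genes were higher in heart and 4 in liver (median 2.43). Over all genes the shares were 22.7 and 23.0%. Ckmt2, the sarcomeric mitochondrial creatine kinase, was at 848, 798 and 461 in hearts and 1.10, 1.74, 1.70 and 2.05 in livers, a difference of 8.02, and Ckm, the cytosolic muscle form, differed by 6.58. Gamt, the last step of creatine synthesis, was higher in liver (6.12, 2.78 and 5.61 in hearts, 210, 236, 144 and 221 in livers, -5.15), as were the mitochondrial adenylate kinases Ak4 (-5.48) and Ak3 (-2.44) and the adenylosuccinate synthase Adss (-1.35).

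The 31 pairs of muscle and liver forms gave 27 with both members tested, of which 14 split as usual, the muscle form higher in heart and the liver form higher in liver. Of 29 muscle forms tested 23 were higher in heart and 2 in liver; of 29 liver forms 22 were higher in liver and 0 in heart. In glucose uptake, Slc2a4, the insulin-responsive carrier, was at 254, 260 and 375 in hearts and 0.961, 0.387, 1.06 and 0.205 in livers (7.50), and Slc2a2, the liver carrier, at 8.97, 4.93 and 10.8 and 736, 795, 630 and 378 (-6.11). Hk2, the muscle hexokinase, was low in both tissues, at 3.71, 5.23 and 8.10 in hearts and 1.92, 2.42, 1.35 and 1.95 in livers. Its difference of 1.16 (limma adjusted p = 0.00236) fell under the size threshold without heart 3 (0.92) and with quantile normalisation (0.94).

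Glycolysis followed the usual forms at most steps. Pfkm, the muscle phosphofructokinase, stood at 1101, 1066 and 1007 in hearts and 7.14, 5.51, 7.93 and 5.63 in livers, a difference of 7.14 (SE 0.18; limma adjusted p = 3.23e-10). Pfkl, the liver form, was closer between the tissues (70.8, 63.2 and 29.9 and 84.9, 105, 142 and 118; -1.09), and missed the size threshold without heart 3 (-0.69) or liver 3 (-0.99) and with plain RPM (-0.75). Ldhb, the lactate dehydrogenase subunit typical of heart, was at 2021, 2534 and 2087 in hearts and 12.4, 16.1, 13.1 and 12.8 in livers (7.24), and Ldha at 137, 145 and 113 and 353, 342, 465 and 500 (-1.64). Aldoa, the muscle aldolase, differed by 3.97, Eno3 and Eno1 by 5.56 and -1.89, and Pkm and Pklr by 3.55 and -5.30. Pgam2, the muscle phosphoglycerate mutase, was higher in heart (5.34), and its widely expressed partner Pgam1 was not called (0.94), though its libraries did not overlap either. Pgam1 was called on the heart side with plain RPM (1.28), with quantile normalisation (1.19), without heart 2 (1.05) and without liver 3 (1.03). Fbp2, the muscle fructose bisphosphatase, was at 144, 114 and 137 in hearts and 0.0687, 0.0967, 0.117 and 0.0512 in livers (6.93). Pfkfb1, the liver kinase and phosphatase that sets fructose 2,6-bisphosphate, was higher in liver (-4.43).

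Glycogen metabolism departed from the usual split. The phosphorylase of muscle, Pygm (ENSMUSG00000032648), was at 162, 177 and 198 in hearts and 1.10, 1.26, 1.76 and 2.36 in livers (6.12; SE 0.22; limma adjusted p = 1.96e-09). The liver phosphorylase, Pygl (ENSMUSG00000021069), was at 416, 329 and 425 in hearts and 626, 626, 934 and 665 in livers: the libraries did not overlap, but the difference of -0.86 (SE 0.21; limma adjusted p = 0.00414) did not reach the size threshold. Its mean was 390 ± 53.0 (SD, n = 3) in heart and 713 ± 149 (SD, n = 4) in liver. For glycogen synthase, Gys2, the liver form, was at 6.03, 2.71 and 13.3 in hearts and 291, 277, 318 and 251 in livers (-5.30). Gys1 (ENSMUSG00000003865), the muscle form, was at 225, 185 and 171 in hearts and 1168, 1341, 533 and 969 in livers. All livers exceeded all hearts, and the difference of -2.30 (SE 0.29; limma adjusted p = 4.02e-05) lay on the liver side.

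Among the regulators of glycogen the muscle members were higher in heart: the targeting subunit Ppp1r3a (7.10; 209, 207 and 143 in hearts, 0.481, 0.193, 0.411 and 0.307 in livers), and the phosphorylase kinase subunits Phka1 (2.25) and Phkg1 (3.44). Their liver partners were not called: Ppp1r3b (-0.51), Phka2 (0.22) and Phkg2 (0.31) had overlapping libraries.

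In the pairs for fat and amino acids, Cpt1b, the muscle gate of fatty acid entry into mitochondria, was at 354, 345 and 512 in hearts and 11.2, 14.2, 34.9 and 15.7 in livers (4.45), and Cpt1a at 62.8, 32.5 and 32.4 and 240, 142, 443 and 326 (-2.68). Liver 3 held the most of both forms among the livers. Fabp3, the heart fatty acid binding protein, differed by 4.74. Acaca, the acetyl-CoA carboxylase of fat synthesis, was higher in liver (-2.61), while Acacb, which controls Cpt1 at the mitochondrion, was not called: 285, 188 and 178 in hearts and 123, 196, 386 and 148 in livers, with a difference of 0.14 (SE 0.35; limma adjusted p = 0.753). Slc27a1, a fatty acid carrier of muscle, was at 64.4, 60.1 and 10.6 in hearts. Heart 3 lay within the liver range of 12.6 to 17.6, and the difference of 1.19 (limma adjusted p = 0.0571) was not called; it was called without heart 3 (2.03), with plain RPM (1.52) and with animals as a block (1.23). Gpt2, the mitochondrial alanine aminotransferase, was the other muscle form higher in liver (-2.99), as was its partner Gpt (-2.41). The methionine adenosyltransferases split, with Mat2a at 3.34 and Mat1a at -6.25.

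The respiratory chain forms also differed in part. Cox7a1, the heart form of a cytochrome c oxidase subunit, was at 256, 216 and 237 in hearts and 9.13, 9.09, 10.6 and 8.14 in livers (4.54), and its partner Cox7a2 was not called (0.26). Cox8b, a muscle form, was at 116, 104 and 282 in hearts on 6531 reads in all and had 2 reads in all livers together, so no fold is given. The ADP/ATP carriers split, with Slc25a4 at 4.04 and Slc25a5 at -2.17, as did the aspartate-glutamate carriers, with Slc25a12 at 4.12 and Slc25a13 at -3.88. For the energy sensor AMPK, the catalytic subunit Prkaa2 was higher in heart (1.62) and Prkaa1 was not called (-0.38); the β subunit Prkab1 was higher in liver (-3.03) and Prkab2 was not called (-0.56). Adssl1, the muscle adenylosuccinate synthase, did not reach the size threshold (0.92), though it did without heart 2 (1.12), with plain RPM (1.25) and with quantile normalisation (1.09).

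Both tissues hold other cells, and in such bulk RNA fewer cells of a type and less RNA per cell cannot be told apart. General endothelial markers were higher in heart in 7 of 13 cases and in liver in 0, beside 22.7 and 23.0% of all genes. Their median was 1.12, and Fabp4 (2.82), Vwf (2.44) and Pecam1 (1.74) led. Markers of the liver's sinusoidal endothelium were higher in liver in 8 of 10 cases (median -3.58). Clec4g, a lectin of those cells, was at 1.35, 0.677 and 0 in hearts and 44.4, 73.6, 71.4 and 74.9 in livers. Smooth muscle markers were all higher in heart (7 of 7, median 2.19), led by Myh11 (4.70). Of fibroblast and stellate markers 9 of 15 were higher in heart and 3 in liver, beside 22.7 and 23.0% of all genes. Des, which heart muscle also makes (6.49), and Rgs5, of pericytes (5.47), stood against Lrat, which stellate cells use to store vitamin A (1.93, 1.13 and 1.45 in hearts, 80.3, 134, 43.1 and 39.3 in livers, -4.74).

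Macrophage markers were higher in liver in 8 of 9 cases (median -2.31). Cd5l, a secreted protein of Kupffer cells, was at 3.18, 1.92 and 2.29 in hearts and 116, 115, 75.4 and 126 in livers (-4.97). C1qb, of complement, was at 3.28, 3.99 and 17.0 in hearts, highest in heart 3, and its difference of -3.25 became -3.88 without that library. Bile duct markers were higher in liver in 6 of 7 cases, led by Epcam (-6.0). Of skeletal muscle genes 4 of 5 were higher in heart, at low levels: the fast myosin genes Myh1, Myh2 and Myh4 stood at 5.35 to 20.8, 4.68 to 6.44 and 5.74 to 10.2 in hearts, with 39, 2 and 2 reads in all livers together. Neither the 3 adipocyte genes nor the 2 blood genes tested were called, but Cfd was called on the liver side with quantile normalisation (-1.05) and without heart 1 (-1.14), and Adipoq without heart 3 (-1.25). Of the 2 lymphocyte genes Lck was higher in liver (-2.09); Cd3g was not called (0.71), except on the heart side without heart 3 (1.07).

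The translation machinery lay towards liver. Of the 42 cytosolic ribosomal protein genes 24 were higher in liver and 0 in heart, beside 23.0 and 22.7% of all genes. Their median was -1.08, and -0.42 with RPM of nuclear genes. Their share of reads was 0.670 to 0.869% in hearts and 1.04 to 1.40% in livers; no library overlapped, but the exact permutation test gave a two-sided p of 0.0571 (adjusted 0.0571). Rplp0, of the ribosomal stalk, was at 230, 324 and 325 in hearts and 1152, 1828, 885 and 1162 in livers (-2.06). Rps15 and Rpl37 differed by -1.85 and -1.79; for Rpl37 liver 3 fell within the heart range.

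To see which tissue differences were particular to the naked mole-rat, its heart-minus-liver difference was set against that of each other species in one model of all 28 libraries. Of 11607 genes tested 1359 (11.7%) differed from all 3 other species in the same direction: 685 with a higher heart-minus-liver difference in the naked mole-rat and 674 with a lower one. With plain RPM the split was 831 to 522. Plain RPM rests on unlike totals here, since mitochondrially encoded reads were nearly absent in the Damaraland mole-rat. Its mean mt-Co1 was 41.2 normalised RPM in heart and 25.0 in liver, against 93020 and 21743 in the naked mole-rat. By the same rule 1136 genes set the Damaraland mole-rat apart. For the guinea pig there were 1171 and for the mouse, with 2 liver libraries, 1650. Across the 11607 genes, the tissue differences of the naked mole-rat had a Pearson correlation of 0.737 with those of the Damaraland mole-rat, 0.697 with the guinea pig and 0.676 with the mouse (Spearman 0.596, 0.547 and 0.514). Genes are not independent replicates, so these values describe the libraries only. Gene matching and animal ages differed between the species and cannot be told apart from species here. After subtraction of the other tissue's signal, an alternative added after the data were seen, 1298 of the 1359 genes kept their call.

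Among the genes with the largest such differences towards heart, Myh8 (ENSMUSG00000055775), a myosin heavy chain of developing skeletal muscle, stood at 138, 162 and 256 in naked mole-rat hearts and 0.549, 1.06, 0.294 and 0.205 in livers. All hearts exceeded all livers by far, and the heart-minus-liver difference of 7.02 compared with 0.41 in the Damaraland mole-rat, 0.47 in the guinea pig and -0.34 in the mouse (limma adjusted p at most 4.35e-11 against each). Wdr62, a spindle pole protein, was at 104, 102 and 290 in hearts and 3.02, 1.64, 2.06 and 2.46 in livers. Its difference was 5.55, against 0.09 in the Damaraland mole-rat, 0.18 in the guinea pig and -0.34 in the mouse. Arhgef33, a predicted guanine nucleotide exchange factor, had 5.48 against -0.27 in the Damaraland mole-rat, 0.11 in the guinea pig and 0.28 in the mouse. Carmil1, a regulator of actin capping, had 4.88, while in the other species it was -0.34 in the Damaraland mole-rat, -1.74 in the guinea pig and -2.45 in the mouse. Gpr17, an orphan receptor, had 4.58, while in the other species liver was level or higher (-1.73 in the Damaraland mole-rat, -1.72 in the guinea pig and -0.80 in the mouse). Mdga2, a cell adhesion protein, was at 54.6, 56.5 and 75.6 in naked mole-rat hearts, with 1 read in all its livers together, whereas the Damaraland mole-rat had more in liver than in heart (-4.85 in the Damaraland mole-rat, 0.13 in the guinea pig and -0.10 in the mouse).

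On the liver side, Miox (ENSMUSG00000022613), the oxygenase that opens inositol and is best known from kidney, stood at 8.29, 4.29 and 17.0 in hearts and 1123, 1857, 760 and 908 in livers of the naked mole-rat. All livers exceeded all hearts, and the heart-minus-liver difference of -6.83 compared with -0.05 in the Damaraland mole-rat, 0.56 in the guinea pig and -0.14 in the mouse (limma adjusted p at most 4.14e-09 against each). Group means were 1.16 in heart and 1.25 in liver of the Damaraland mole-rat, 3.26 and 1.37 in the guinea pig and 0 and 0.0990 in the mouse. The summed level of 10 kidney markers, a list added after the data were seen, was 0.352 to 1.45 normalised RPM in these livers. Trpv6, an epithelial calcium channel, was at 7.09, 0.978 and 3.12 in hearts and 165, 315, 420 and 242 in livers; its difference of -6.09 compared with 0.07 in the Damaraland mole-rat, -0.40 in the guinea pig and -0.15 in the mouse. Pdcd1, the checkpoint receptor PD-1 of T cells, was at 93.9, 92.6, 80.2 and 133 in livers and 1.40, 1.05 and 1.87 in hearts. Its difference was -5.40, against 0.01 in the Damaraland mole-rat, 0.16 in the guinea pig and 0.02 in the mouse. The 9 lymphocyte markers summed to 7.99 to 13.6 in these livers and 4.16 to 5.30 in the hearts. Of the 2 that were tested between the tissues, the T cell kinase gene Lck stood at 4.71 to 9.29 in livers and 0.753 to 1.04 in hearts. It was, like Pdcd1, called lower against all 3 species. Cd3g, of the T cell receptor complex, stood at 0.470 to 1.18 in livers and 0.831 to 3.13 in hearts. It was called higher against all 3 species. Of the 4 lymphocyte genes tested across species 1 was called higher and 1 lower. The part of lymphocytes in the difference of Pdcd1 was not tested. Nectin4, an epithelial adhesion protein, and Gpr37l1, a receptor known from glia, had -5.62 and -5.14. Aqp7, a glycerol channel, turned its sign: -3.26 in the naked mole-rat, but 2.85 in the Damaraland mole-rat, 3.39 in the guinea pig and 4.26 in the mouse.

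**Figure D4:**
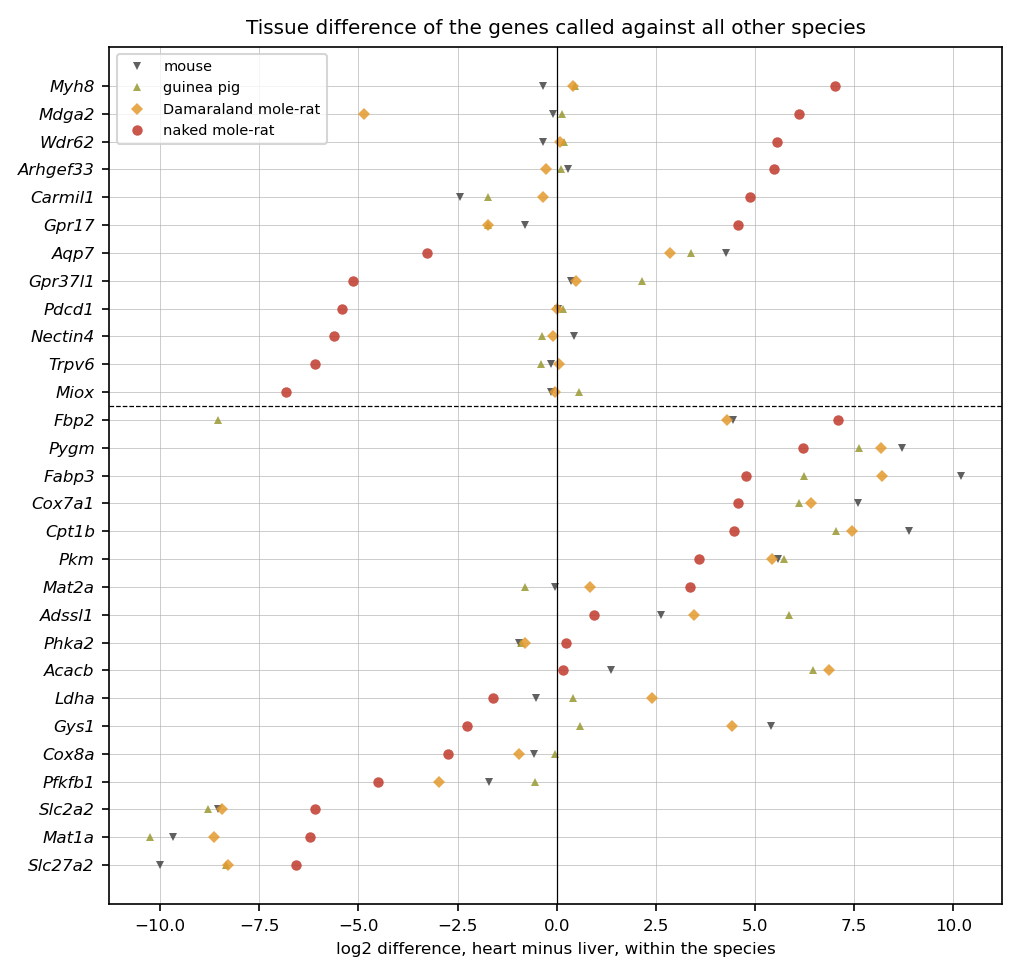
Each row is a gene called against all 3 other species, and each symbol the heart-minus-liver log2 difference within a species; genes above the dashed line have the largest such differences and those below it belong to the muscle and liver pairs. For Myh8, Wdr62, Arhgef33, Pdcd1, Nectin4, Trpv6 and Miox the other species lie near 0, whereas for Gys1 the naked mole-rat lies at -2.27 and the other species between 0.58 and 5.41.

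Of the 58 pair genes tested across species 18 were called, 11 with a lower and 7 with a higher heart-minus-liver difference in the naked mole-rat. That is 31.0%, beside 11.7% of all genes, of which 5.81% lay lower and 5.90% higher. Gys1, the muscle glycogen synthase, had the largest departure of the 18, counted against the nearest other species: -2.27 in the naked mole-rat against 4.43 in the Damaraland mole-rat, 0.58 in the guinea pig and 5.41 in the mouse (limma adjusted p at most 1.03e-05 against each). The naked mole-rat liver had the highest mean of all groups, 1104, where the means were 158 in heart and 6.95 in liver of the Damaraland mole-rat, 283 and 204 in the guinea pig and 157 and 2.70 in the mouse. Several muscle forms had a smaller heart-minus-liver difference in the naked mole-rat than in every other species: Cpt1b (4.48 against 7.43 in the Damaraland mole-rat, 7.03 in the guinea pig and 8.87 in the mouse), Pygm (6.20), Pkm (3.58), Cox7a1 (4.57), Fabp3 (4.77) and Adssl1 (0.94). Mean Cpt1b was 452 in heart and 20.9 in liver of the naked mole-rat. It was 479 and 1.87 in the Damaraland mole-rat, 324 and 1.62 in the guinea pig and 696 and 0.599 in the mouse. For Cox7a1 and Fabp3 the naked mole-rat liver mean likewise lay above all other livers. For Pygm, Pkm and Adssl1 its heart mean lay below all other hearts. Ldha lay further towards liver than elsewhere (-1.61 against 2.41 in the Damaraland mole-rat, 0.41 in the guinea pig and -0.53 in the mouse), as did Cox8a (-2.74) and Pfkfb1 (-4.50). Ldha was not called with plain RPM, where its smallest departure from another species was -0.53, with quantile normalisation (-0.58), or without heart 3 (-0.97) or liver 4 (-0.99). Fabp3 was not called without heart 3 (-1.13), nor Cox7a1 (-0.43) and Pfkfb1 (-0.22) with a pseudocount of 5. Mat2a had 3.37 in the naked mole-rat against 0.83 in the Damaraland mole-rat, -0.79 in the guinea pig and -0.05 in the mouse. Fbp2 had 7.08 against 4.30 in the Damaraland mole-rat, -8.53 in the guinea pig and 4.45 in the mouse; the guinea pig stood apart from all others here, and Fbp2 was not called with voom (1.76).

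A smaller liver excess in the naked mole-rat, a higher heart-minus-liver difference than in all 3 other species, was called for 14 of 27 plasma protein genes and 17 of 32 coagulation and complement genes, beside 5.90% of all genes. The hepatocyte gene signal of its hearts stood at 0.700 to 1.77% of the liver level. After the subtraction 3 and 5 were called. Since the amount subtracted was set from the plasma protein genes themselves, their loss of calls follows from its construction, and the part of the signal in these differences was not tested. Alb had -6.95 against -9.57 in the Damaraland mole-rat, -10.52 in the guinea pig and -11.33 in the mouse, and was not called after the subtraction, nor were Slc27a2 (-6.58), Hnf4a (-5.97) and Arg1 (-6.69). The smallest departure from another species was then -0.24 for Alb, -0.25 for Slc27a2 and 0.05 for Arg1. For Hnf4a it was 1.43, still above the size threshold. Mat1a (-6.23 against -8.64 in the Damaraland mole-rat, -10.25 in the guinea pig and -9.68 in the mouse) and Slc2a2 (-6.10 against -8.43 in the Damaraland mole-rat, -8.79 in the guinea pig and -8.53 in the mouse) kept their calls. Acacb, not called between the naked mole-rat tissues, had 6.87 in the Damaraland mole-rat, 6.47 in the guinea pig and 1.36 in the mouse. Its departure from the mouse, -1.20 (limma adjusted p = 0.0477), lay near the thresholds: it was still -1.20 after the subtraction but no longer called, nor was it without heart 2 (-1.11), heart 3 (-1.07), liver 2 (-1.19) or liver 3 (-0.88), or with plain RPM (-0.65). Of the 18 pair genes 15 kept direction and call.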

How the data were processed

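Total RNA, depleted of ribosomal RNA, was sequenced from 28 heart and liver samples, of which the 7 naked mole-rat libraries were compared here. The authors deposited 1 table per tissue with 13928 mouse gene identifiers, 13921 of them matched to a symbol, and log2-like variance-stabilised values; the submitters' processing notes name cutadapt, Salmon, DESeq2 and GRCm38, with the roles of the build and the matching of genes across species not given in the sources used here. The tables also hold 26 columns of other studies, which were not used. The lowest value, 5.3645 in the heart table and 4.2893 in the liver table, stands for 0 reads. Since the tables were transformed separately, each value was turned back to a number proportional to scaled reads by the inverse of the transform, and then to whole reads: the largest deviation from a whole number in any naked mole-rat library was 9.3e-08 reads. Values were divided by the library total, expressed per 1000000 reads (RPM) and divided by median-of-ratios factors over the libraries compared.

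Genes with a mean of the tissue means of at least 1 RPM entered the limma test (version 3.58.1, R 4.3.3) on log2(x + 1), with a variance trend and Benjamini-Hochberg adjustment over all genes tested, and a call needed an adjusted p under 0.05 together with a log2 difference of at least 1 in size. Of the genes, 609 had 0 reads in all 7 libraries and 2372 had reads but were under the filter. The limma fits and calls were checked on simulated reads in which few genes changed, equally many up and down. That check did not cover the inverse of the transform, nor a difference in scaling between the tissues as large as that seen here. The comparison across species used the same model for all 28 libraries, 8 groups, with the interaction of species and tissue. Shares of reads were compared by an exact permutation test over 35 splits. List results are counts and medians, with no test of a list. Named genes were the 10 largest differences in each direction without overlap and with a mean of at least 100 normalised RPM, the 3 largest members and the contrary members of each list, all pair genes, and the 6 largest in each direction across species. Members, lists and rules were chosen with earlier results of these data known. Naked mole-rat animals pair the libraries only in part: 2 of 5 gave both tissues, and replicate numbers do not follow the animals. Deviations from the tissue means correlated at 0.27 and -0.18 for the same animal, and the within-animal correlation of the model was 0.059, so the animal enters only as an alternative. Alternatives covered scaling, pseudocount, filters, thresholds, variance model, weights, voom on the recovered reads, the animal block, leaving out each library and, added after the data were seen, subtraction of the other tissue's signal, for which each heart lost its median percentage of the liver level of plasma protein genes times the liver mean, and each liver likewise with sarcomere genes. Levels that the subtraction would take below 0 were set to 0. Promoters and sequences were not analysed here. Some genes that the naming rule picks are not reported here.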

Additional observations from a re-analysis of the deposited data

Results flagged for a closer look

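Among the 192 values of 4 livers examined, 10 held a library whose gap to the nearest other exceeded Dixon's critical value for 4 samples; chance gives about 1 in 20. Liver 1 stood alone with a low Arg1 of 2496 normalised RPM (others 3848 to 4207), a low Clec4g of 44.4 (71.4 to 74.9), a low Fabp3 of 17.6 (26.0 to 27.1) and a high Hnf4a of 912 (700 to 728). Liver 3 stood alone with a low Dnase1l3 of 44.9 (60.4 to 63.9), a high Lmod1 of 1.64 (0.687 to 0.774) and a high Pygl of 934 (626 to 665). The others rest on 1 or 2 reads where the other livers had 0: Cox8b at 0.102 in liver 4, Mdga2 at 0.0587 in liver 3 and Myh2 at 0.137 in liver 1.

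The heart-minus-liver difference of the naked mole-rat was tested against that of each other species, and genes that differed from all 3 in the same direction stand out among the named genes. The log2 value against the nearest species was 6.55 for Myh8, 5.97 for Mdga2, 5.37 for Gpr17, 5.37 for Wdr62, 5.22 for Carmil1 and 5.20 for Arhgef33, all with a higher difference in the naked mole-rat. That of Mdga2 rests on 1 liver read and depends on the pseudocount. It was -6.69 for Miox, -6.12 for Aqp7, -5.69 for Trpv6, -5.52 for Gpr37l1, -5.40 for Pdcd1 and -5.23 for Nectin4, with a lower one. Among pair genes it was -2.86 for Gys1, -2.55 for Cpt1b, -1.84 for Pkm, -1.80 for Cox8a, -1.70 for Adssl1, -1.54 for Pfkfb1, -1.53 for Cox7a1, -1.47 for Fabp3, -1.42 for Pygm, -1.20 for Acacb and -1.08 for Ldha. On the other side were Fbp2 at 2.63, Mat2a at 2.54, Mat1a at 2.41, Slc2a2 at 2.32, Slc27a2 at 1.71 and Phka2 at 1.03. After the subtraction of the other tissue's signal Slc27a2 stood at -0.25 and was no longer called. The call of Acacb was lost with its value unchanged at -1.20, near the thresholds. Phka2 was not called without heart 3 (0.94), liver 1 (0.90) or liver 4 (0.99).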

How the results depend on the processing

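Leaving out 1 library gave 4961 to 5081 genes for heart against liver, 1306 to 1399 across species, 503 to 511 list members called, 13 to 15 pairs split as usual, and differences in the share of reads of 12.7 to 13.9 percentage points for sarcomere, 2.04 to 2.41 for calcium and excitation, -19.1 to -16.9 for plasma protein, -7.27 to -6.88 for coagulation, -3.88 to -3.35 for lipoprotein, 1.45 to 1.50 for nuclear respiratory, 17.2 to 19.3 for mitochondrially encoded and -0.550 to -0.426 for ribosomal protein genes. A size threshold of 2 on the log2 scale left 2311 and 430 genes, fewer by construction. With nuclear genes as the total the share differences were 17.6 for sarcomere, 3.05 for calcium, 2.18 for nuclear respiratory and -0.312 for ribosomal protein genes. No called heart-minus-liver difference of a named gene changed sign under the alternatives run gene by gene. Across species the subtraction turned the smallest departure of Apoc1 (1.95 to -1.56, called lower), Alb (to -0.24) and Slc27a2 (to -0.25). A pseudocount of 5 turned that of Arg1 (to -0.04). The other 29 genes whose departure was recomputed kept its sign. For Apoc1 and Alb the subtraction took the naked mole-rat heart level to about 0, so their turned values are set largely by the subtraction. With the animal as a replicate block 4999 genes were called, 4982 of them the same, and 1377 across species; with only the 2 animals that gave both tissues, 5075. The block changed no call of a named gene other than Slc27a1. For heart against liver 10 named genes lost a call and 6 gained one under some alternative run gene by gene. RPM of nuclear genes and a pseudocount of 5 were not run gene by gene here. With these, 4135 and 3717 of the 4999 calls were kept. With quantile normalisation the named genes that lost a call were Suclg2 (-0.98), Fh1 (-0.46), Hlf (0.87), Hk2 (0.94), Ndufb4 (-0.98), Ndufb7 (-0.70) and Pfkl (-0.83). Across species 16 of 33 lost a call with its sign kept under some setting, and Alb lost it with its sign turned. For Pygm, Pkm, Adssl1 and Cox8a the only such setting was the size threshold of 2, which takes calls by construction. With a pseudocount of 5 Slc2a2 (0.90), Phka2 (0.92), Slc27a2 (0.37), Apoc1 (0.17) and Hnf4a (0.92) lost the call. The depth of heart 3, 4089633 reads, sets its limit for rare genes: 3 reads there are 0.734 RPM.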

Other observations

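Genes of oxidative stress and oxygen sensing, a list not described above, lay on both sides: 7 of 31 were higher in heart and 15 in liver (median -0.85), beside 22.7 and 23.0% of all genes. The median came to -0.53 with plain RPM and -0.23 with RPM of nuclear genes. Cat, the catalase of peroxisomes, stood at 114, 80.1 and 137 normalised RPM in hearts and 1444, 1476, 1397 and 1305 in livers, a log2 difference of -3.69 (SE 0.21; limma adjusted p = 4.77e-08). On the heart side were Prdx2, a peroxiredoxin abundant in red cells (112, 133 and 219 in hearts, 2.88, 2.90, 3.82 and 4.0 in livers, 5.09), and Egln3, an oxygen-sensing prolyl hydroxylase (89.4, 123 and 66.1 in hearts, 5.70, 4.06, 4.76 and 5.53 in livers, 3.93). All hearts exceeded all livers for both. The erythroid gene Alas2 stood at 3.47, 3.80 and 6.23 in hearts and 8.72, 4.35, 7.75 and 5.94 in livers, and the other blood gene, Tfrc, at 88.1, 72.4 and 106 and 77.3, 45.5, 70.1 and 63.7. Neither was called, and the part of blood in the difference of Prdx2 was not tested.

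In the proteasome 5 of 37 genes were higher in liver and 0 in heart (median -0.47), a smaller share than the 23.0% of all genes called higher in liver. The median came to -0.13 with plain RPM and 0.19 with RPM of nuclear genes, so its side depended on the scaling. The largest were the inducible, or immunoproteasome, members: Psmb10 (0.771, 0.790 and 1.45 in hearts, 7.62, 8.80, 6.05 and 14.6 in livers, -2.31), Psmb9 (-2.18) and the activator subunit Psme2 (-2.04). Of the macrophage markers 8 of 9 were also higher in liver. The summed level of these markers was 387 to 631 normalised RPM in livers and 62.7 to 109 in hearts. The part of macrophages in the proteasome differences was not tested. Psmb10 lay further towards liver in the naked mole-rat than in any other species (-2.35 against 1.06 in the Damaraland mole-rat, 0.37 in the guinea pig and -0.50 in the mouse).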
